A study of Homo sapiens with 12 samples.

Results

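The wild-type ac4C peak landscape of H1 cells was described from 2 peak lists, those of the wild-type immunoprecipitation libraries, out of 4 lists and 12 samples in the series. A peak was taken as held by both lists where it overlapped a peak of the other list by at least 1 bp on the same chromosome and strand, and a gene was taken as shared where its Ensembl identifier had a peak in both. Of 37988 peaks in replicate 1, 14207 were held by both lists, and of 38150 peaks in replicate 2, 13837 were. Of 8684 genes with a peak in either list, 5607 were shared.

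H1 is an established human embryonic stem cell line. The cells of both libraries are labelled wild type in genotype and treatment, and were grown in PGM1 medium on plates coated with Matrigel. Their total RNA was depleted of ribosomal RNA, broken into pieces of about 200 nt, pulled down by an antibody that binds N4-acetylcytidine (ac4C) and made into strand-specific libraries. The labels name the tissue early embryo and the molecule polyA RNA, although a ribosomal RNA removal kit is described, so it is not settled which RNA was pulled down. Whether the replicates came from separate cultures is not stated in the labels, so differences between them may be technical. Input and IgG libraries of these cells were not used here, so enrichment over the level of each RNA could not be computed.

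N4-acetylcytidine is a cytidine that carries an acetyl group on its base. NAT10 is the RNA acetyltransferase that writes it, long known from the RNA of the small ribosomal subunit and, with the adaptor THUMPD1, from transfer RNA. In human messenger RNA the mark has been tied to RNA stability and translation, and in HeLa cells it was described in stretches with a repeated C, each followed by any 2 bases.

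The labelled cell type was checked against marker genes by the presence of peaks, which is not a level of expression. Of 20 markers of pluripotent stem cells, 14 had a peak in both lists, 5 in 1 list and 1, FOXD3, in neither. The core transcription factors of pluripotency were among them, with 3 and 4 peaks in POU5F1, 6 and 4 in SOX2 and 5 and 4 in NANOG in replicates 1 and 2. None of 6 mesoderm and none of 6 endoderm markers had a peak in either list. Of 6 ectoderm markers only NES, an intermediate filament gene also expressed by stem cells, had peaks (11 and 4), and of 6 trophectoderm markers only TFAP2C did (2 in replicate 1 and 0 in replicate 2). Of 6 fibroblast markers, COL1A1 (8 and 4), COL1A2 (9 and 4) and THY1 (8 and 9) had peaks in both lists, while COL3A1, DCN and LUM had 0. Over all 20056 protein-coding RefSeq genes, 26.6% had peaks in both lists and 60.0% in neither. Sets of 6 markers are small beside these shares, so their peaks or lack of peaks say little about cell type.

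The letters under a peak could be read where a short peak covered the start of a gene, since RefSeq gives the first 50 bases of each gene in assembly GRCh38.p14. The 8 sequences below are from the gene starts where both lists had a peak of at most 300 nt with at least 20 shared bases and the highest lower score percentile. Each is the 5′ end, at most 30 bases, of the stretch that both peaks cover, written 5′ to 3′ on the strand of the gene. Capitals mark CNNCNNCNNCNN, 4 steps of a C and any 2 bases, searched on the transcribed strand with overlaps allowed.
NUTF2: gcagaccgcgctgggttgCCGCTGCCGCTG
H2BC5: attattttctcaggtgtttgcaaca
RPL41: ctctcggccttagcgccatttttttgggtg
RPL38: ctttttcgtccttttccccggttgctgct
VDAC1: tggcccagccgctcgctcggctccgctccc
MALAT1: aggcattgaggcagccagcgcaggggcttc
PDHB: agcggatagaggacacgaccaagatggcgg
TMA7: gtttccggtggcagggtctggggaagcggc
NUTF2, a carrier that brings the GTPase Ran into the nucleus, had its stretch at chr16:67846933-67846962 on the plus strand, inside a peak of 203 nt in both lists at percentiles 98.7 and 98.3. H2BC5, a histone H2B gene, had a peak of 25 nt in both lists (chr6:26158122-26158146, plus strand). RPL41 (chr12:56116633-56116662, plus strand) and RPL38 (chr17:74203678-74203706, plus strand) encode proteins of the large ribosomal subunit, and each had a 50 nt peak in both lists. VDAC1, the main pore of the outer mitochondrial membrane (chr5:134004720-134004749, minus strand), had a peak of 136 nt in both. MALAT1 is an abundant nuclear noncoding RNA (chr11:65499045-65499074, plus strand), with a peak of 250 nt in both. PDHB is a subunit of pyruvate dehydrogenase (chr3:58433803-58433832, minus strand), and TMA7 is named after a translation machinery associated protein of yeast (chr3:48440257-48440286, plus strand). Their peaks spanned 75 nt in both lists. NUTF2 alone among the 8 printed stretches held the searched letters.

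Over the gene starts searched, 435 genes in replicate 1 and 672 in replicate 2 had a peak of their own in the first 50 bases, and 211 genes had one in both lists. The letters CNNCNNCNNCNN stood in 36.2% of the 224 start windows of those 211 genes (95% interval 29.9 to 42.8), in 31.9% of 5515 windows of shared genes with no peak at the start, and in 25.7% of all 34961 windows. Cytosine made up 30.8, 29.2 and 28.0% of the bases in the same order, so windows with more matches also held more C. A match describes the letters of the window and is not a site of acetylation.

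Peaks also covered some microRNA genes. Of 1558 RefSeq hairpins, 44 lay wholly inside a peak of replicate 1, 48 inside one of replicate 2 and 14 inside peaks of both. In 3 of the 14 the peaks were 1000 nt or shorter in both lists, and the mature microRNAs of these hairpins are shown with the seed, bases 2 to 8, in capitals, as far as the RefSeq table lists them (for MIR7107 the 5p arm).
hsa-miR-4742-5p: uCAGGCAAagggauauuuacaga
hsa-miR-4742-3p: uCUGUAUUcuccuuugccugcag
hsa-miR-7107-5p: uCGGCCUGgggaggaggaaggg
hsa-miR-6857-5p: uUGGGGAUugggucaggccagu
hsa-miR-6857-3p: uGACUGAGcuucuccccacag
The seeds all differed. The peaks over MIR4742 were assigned by the authors to WDR26 and spanned 858 and 463 nt, those over MIR7107 to KDM2B with 352 and 377 nt, and those over MIR6857 to SMC1A with 574 and 173 nt. Their score percentiles lay between 40.5 and 77.7. A peak over a hairpin can come from the host transcript, and it is no measure of the microRNA.

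About 37% of the peaks in each list were held by the other, 37.4% in replicate 1 (95% exact Clopper-Pearson interval 36.9 to 37.9) and 36.3% in replicate 2 (35.8 to 36.8). These intervals cover counting error only, and peaks of 1 gene are not independent. On the opposite strand 1.97 and 1.98% of peaks overlapped a peak of the other list. The share rests on the overlap asked for, since 19.2% of peaks on average were held by both when the overlap had to cover 50% of both peaks, and 20.8% of the 60516 regions left after merging the lists held peaks of both. The deposited score was 10 or higher for every peak and had medians of 12.7 and 13.8. It was infinite for 8 peaks and for 1 peak.

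Peaks with higher scores were held by both lists more often. Each list was cut into 10 equal classes by score rank, and the shared share went up at every step, from 22.0 to 53.7% in replicate 1 and from 17.6 to 56.0% in replicate 2. Of the 100 peaks with the highest scores, 80 and 89 overlapped a peak of the other list, whose own median percentile was 98.7 and 99.2, and 27 overlapped a peak among the top 100 of the other list. Shared peaks had a median percentile of 58.5 and 60.2, against 44.7 and 43.8 for peaks of 1 list only. Across the 15508 overlapping pairs, the score percentiles of the partners had a Spearman rho of 0.194, given as a description over pairs that share genes and libraries. The median percentile difference was 15.1 on average, and 6.27 when only the stronger 50% of each list was compared.

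**Figure D1:**
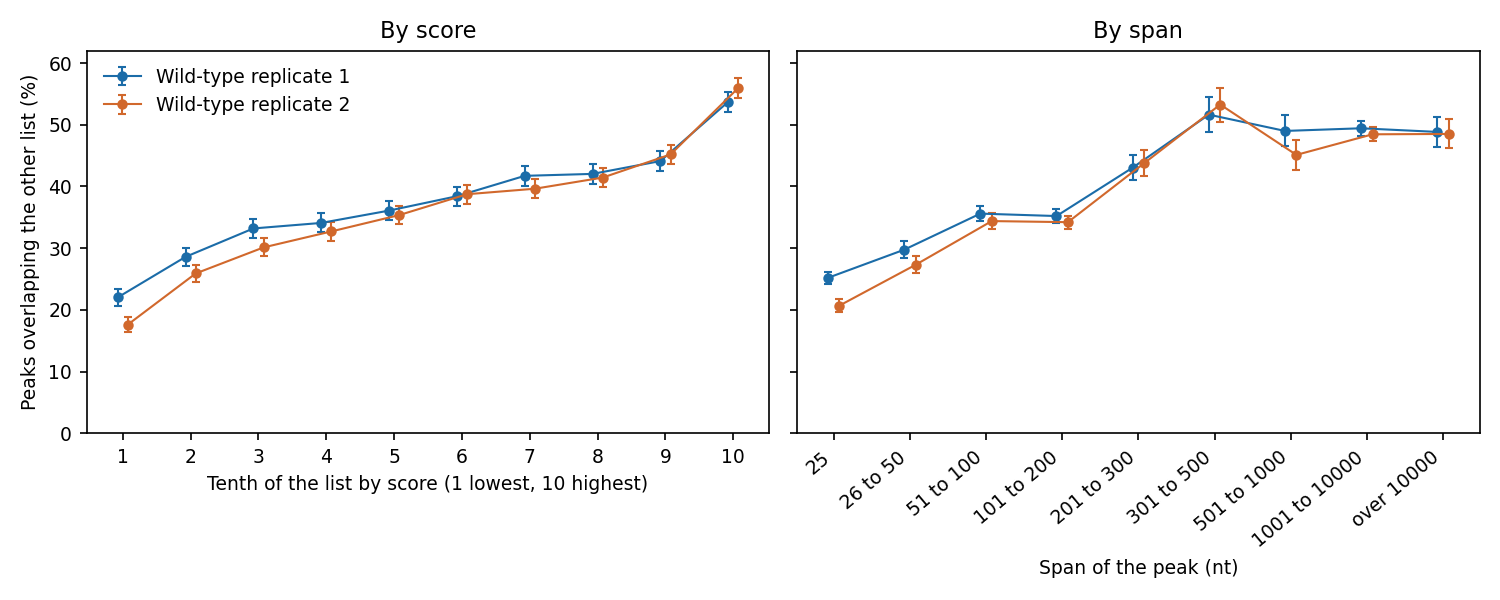
Percentage of peaks that were also held by the other list (vertical axis), by score class from lowest to highest (left) and by span in nt (right), for replicate 1 (blue) and replicate 2 (orange), with 95% exact intervals for counting error. The share climbs from 22.0 and 17.6% in the lowest score class to 53.7 and 56.0% in the highest, and from 25.2 and 20.7% at 25 nt to 51.6 and 53.3% at 301 to 500 nt.

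Shared peaks were also longer, with a median span of 175 and 200 nt against 100 and 125 nt for peaks of 1 list only. Peaks of 25 nt, the shortest step, made up 19.9 and 17.2% of the lists, and 25.2 and 20.7% of them were shared. The share was highest at 301 to 500 nt (51.6 and 53.3%) and stood at 48.8 and 48.5% above 10000 nt. A longer peak has more bases that can overlap, so span and score were also set side by side. Among peaks of 25 to 200 nt, 26.0 and 23.1% of those in the lower 50% by score and 37.8 and 37.5% of those in the upper 50% were shared. The lists differed in span, with medians of 125 and 150 nt over all peaks, and 22.8 and 24.1% of peaks spanned over 1000 nt, which can include introns. The median span difference between shared and other peaks was 75 nt in both lists, 163.75 nt on average when the overlap had to cover 50% of both peaks, and 50 nt among peaks of at most 1000 nt.

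The overlaps were often partial. Of the 15508 pairs, 1774 (11.4%) had the same start and end, and 8203 (52.9%) shared at least 1 boundary. The median overlap was 100 nt, and the overlap was 0.4 of the union of both peaks at the median. Merging gave 12582 shared regions with a median span of 403 nt, of which 83.1% were made of 1 peak from each list. Both peaks stood at percentile 90 or higher in 703 of them, spread over 553 genes, and at percentile 99 or higher in 90.

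Of the 12 shared regions with the highest scores, 4 lay in mitochondrial transfer RNA genes and 8 in nuclear genes. MT-TD, the mitochondrial transfer RNA for aspartate, led with an infinite score in both lists (mitochondrial DNA, 7518 to 7585, plus strand). RPL31, of the large ribosomal subunit, followed with scores of 282.9 and 265.6 and the same 125 nt span in both. DNMT3B, a DNA methyltransferase abundant in embryonic stem cells, had scores of 239.4 and 255.5. TERF1, which binds telomeric repeats, had 225.6 and 262.4 over a region of 6672 nt, which can include introns. RPS21, a protein of the small ribosomal subunit, had scores of 222.9 and 197.9 over 50 nt at chr20:62388435-62388484 on the plus strand. UBE2D2, an enzyme that conjugates ubiquitin, had 221.3 and 183.7 at chr5:139614569-139614618 on the plus strand. HSP90B1, a chaperone of the endoplasmic reticulum, had 189.5 and 174.5 at chr12:103946766-103946965 on the plus strand. RACK1, a scaffold protein on the small ribosomal subunit, had 169.2 and 200.9 at chr5:181241487-181241661 on the minus strand, and RPL29 had 164.3 and 297.8. The other 3 of the 12 highest regions were the mitochondrial transfer RNA genes MT-TW, MT-TI and MT-TE. All of these peaks stood above percentile 99 in both lists, and exon or untranslated region was not annotated here.

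Mitochondrial RNA was a small part of the lists, with 22 and 23 peaks. It had the largest share of peaks held by both, 68.2% (95% interval 45.1 to 86.1) and 73.9% (51.6 to 89.8). By gene it did not stand out, with 15 of 23 genes (65.2%) in both lists, beside 64.6% of all genes with a peak. Its shared genes had a median of 1 peak in each list. Mitochondrial RNA gave 15 shared regions. In 12 of these the region had the exact extent of a RefSeq gene, 11 of them transfer RNA genes and the other MT-ND3, a subunit of respiratory complex I. Scores were close for MT-TE, 180.0 and 178.6, and apart for MT-TS1, 237.8 and 81.2, and MT-TH, 228.2 and 42.1. MT-TC had an infinite score in replicate 1 and 24.9 in replicate 2. The 11 regions with the extent of a transfer RNA gene stood at percentile 95.7 or higher in both lists, in a different order. The MT-TC region stood at percentiles 99.99 and 84.4.

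The longest shared regions were spans over whole genes or large parts of them. GPC6, a cell surface proteoglycan, had a region of 568041 nt made of 1 peak per list, at percentiles 79.4 and 20.3. GALNT13, which starts O-linked glycans, had one of 291462 nt, MTAP, of the methionine salvage pathway, one of 211330 nt built from 10 and 8 peaks, ANO10 one of 178653 nt and GULP1 one of 172104 nt. No read-level signal was at hand to place the enriched part within such spans.

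Shared genes carried 6.11 and 5.94 peaks on average, with a median of 5 in both lists and at most 92 and 86. The average of both lists was 6.02, and 3.60 with only the stronger 50% of each list. The number of peaks of a gene in replicate 1 went with that in replicate 2, with a Spearman rho of 0.633 and a Pearson r of 0.787 across 5607 genes, which are not independent replicates. The number was the same in 982 genes (17.5%) and within 2 peaks in 65.2%. Genes of 1 list only numbered 1319 and 1758 and had 2.84 and 2.75 peaks on average. Shared genes made up 81.0 and 76.1% of the genes of each list and held 90.1 and 87.3% of the peaks. This count asks for a peak in each list and for no overlap. An overlapping pair of peaks was found in 4530 of the 5607 genes, and a pair whose overlap covered 50% of both peaks in 3485.

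**Figure D2:**
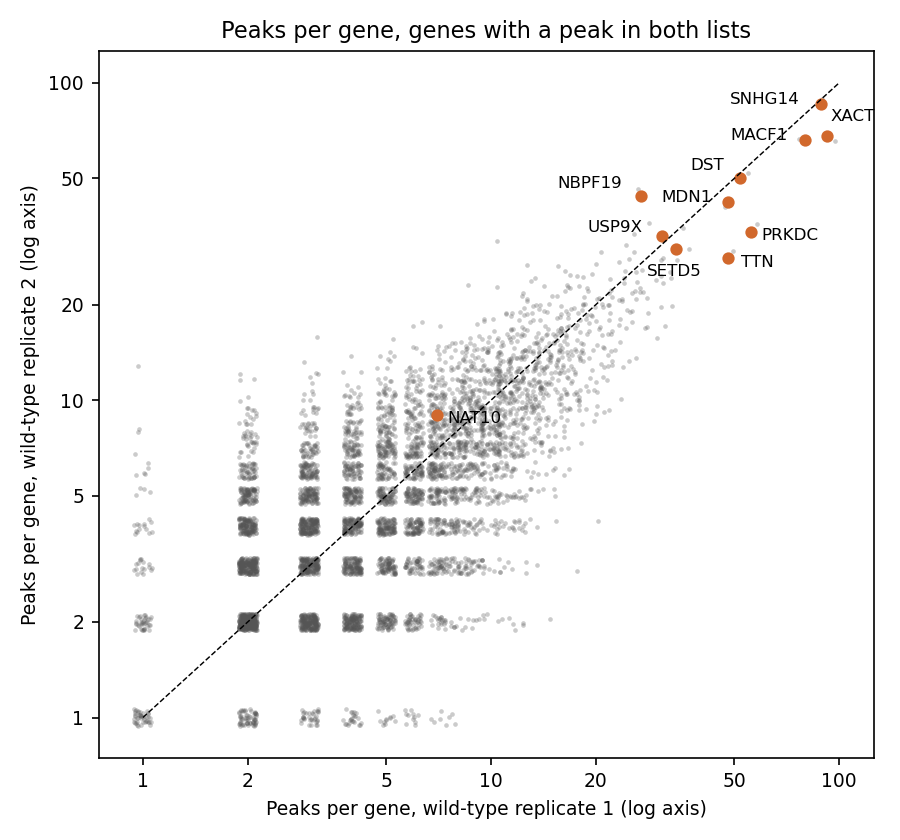
Peaks per gene in replicate 1 (horizontal, log axis) and replicate 2 (vertical, log axis) for the 5607 shared genes, each a grey point with small random displacement, and selected genes in orange at their exact values. Most points spread around the dashed line of equal numbers, SNHG14, XACT and MACF1 lie at the upper end, TTN and PRKDC lie below the line, and NBPF19 lies above it.

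Most peaks of 1 list only still lay in a shared gene. This held for 84.2% of them in replicate 1 and 80.2% in replicate 2. The gap to the nearest peak of the same gene in the other list had a median of 825 and 959 nt, and was within 100 nt for 20.3 and 19.1%. The 4530 genes with an overlapping pair were 80.8% of the shared genes. The other 1077 had none, with a median of 2 for the lower of their peak numbers, against 4 for genes with a pair.

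The noncoding RNAs SNHG14 and XACT had the most peaks in both lists. SNHG14, the host of small nucleolar RNA clusters in the Prader-Willi region of chromosome 15, carried 89 and 86 peaks under ENSG00000224078 and 36 and 29 under a second identifier, ENSG00000214265. Under the first identifier 37 and 49 were held by both lists, and under the second 35 and 28. XACT, a noncoding RNA that coats active X chromosomes in human pluripotent cells, had 92 and 68 peaks, of which 10 and 11 were shared. MACF1 (80 and 66 peaks) and DST (52 and 50) encode giant linkers of the cytoskeleton. MDN1 (48 and 42) encodes an ATPase that matures the large ribosomal subunit, DYNC1H1 (36 and 35) the heavy chain of cytoplasmic dynein and PRKDC (56 and 34) the catalytic subunit of DNA-dependent protein kinase. Enzymes of the ubiquitin system were represented by USP9X (31 and 33), HUWE1 (30 and 37) and UBR4 (35 and 28), and chromatin proteins by SETD5 (34 and 30) and CHD8 (31 and 28). NBPF19 (27 and 44) belongs to a family of near-identical copies on chromosome 1, so its peaks are uncertain.

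Peak number and peak position did not always go together. TTN, the giant muscle protein titin, had 48 and 28 peaks and only 3 and 4 of them were shared. TTN-AS1, transcribed from the opposite strand of the same locus, had 17 and 8 peaks and none shared. In CHD8, by contrast, 23 of 31 and 20 of 28 peaks were held by both lists, and in MDN1 28 of 48 and 27 of 42. After merging, SNHG14 had 36 shared regions under its first identifier, MACF1 29, MDN1 and PRKDC 26 each, DST 22 and NBPF19 20.

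NAT10 itself had 7 peaks in replicate 1 and 9 in replicate 2, of which 3 in each were shared. Its highest peaks stood at percentiles 90.1 and 81.2. Among the other enzymes of RNA modification, the adenosine deaminase ADAR had 21 and 21 peaks, the m6A writer components ZC3H13 18 and 14 and METTL3 7 and 7, and the pseudouridine synthase DKC1 13 and 10. Of 66 RefSeq genes on the list of RNA modification enzymes, 35 (53.0%) had peaks in both lists and 21 (31.8%) in neither, beside 26.6 and 60.0% of all 20056 protein-coding RefSeq genes. Of the peaks of that list 40.6 and 42.5% were shared, against 37.4 and 36.3% of all peaks.

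Some genes with many peaks were in 1 list only. Replicate 1 alone had peaks in GTF2I (20), a transcription factor gene with near-identical copies, in GNAS (19), the stimulatory G protein subunit, in HNRNPC (14), in PABPC1 (13), the main cytoplasmic poly(A)-binding protein, and in CCDC150 (11). The highest peaks of GNAS, HNRNPC and PABPC1 stood at percentiles 99.84, 99.92 and 99.97 of that list, and none overlapped a peak of replicate 2. Replicate 2 alone had peaks in EIF2B5 (11), CFAP36, ZC3H4, C1orf198 and YY1AP1 (10 each) and ACOT9 (9). Absence from a list of peaks does not show that a gene had no signal.

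Among shared genes, longer ones had more peaks but fewer per length. Of the shared genes, 5551 (99%) matched a RefSeq symbol, and of these 96.2% were protein coding, 131 were long noncoding RNAs and 74 pseudogenes. Across them the number of peaks and the length of the gene, introns included, had a Spearman rho of 0.29 in both lists. In the shortest 25% of genes, with a median length of 10939 nt, genes had 4.40 and 4.27 peaks on average and a median of 40.3 and 37.9 peaks per 100 kb. In the longest 25%, with a median of 164580 nt, these genes had 7.89 and 7.63 peaks on average and 3.37 and 3.35 per 100 kb. Each gene was chosen for at least 1 peak in each list, which sets a floor on peaks per length that is higher in short genes. The fall per length is thus partly fixed by this choice. Some matched lengths are too short, as for XACT with 1854 nt and peaks that sum to 12150 and 9050 nt.

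Of 10 equal bins along the gene, the last held the most peaks. Peaks were placed by their midpoint in 10 equal bins of the RefSeq gene, introns included, and 30.5 and 29.1% lay in the bin at the 3′ end. Of these 30.3 and 30.8% were shared, the lowest of the 10 bins in both lists, and they made up 24.5 and 24.6% of shared peaks. Within 500 nt of the gene end lay 6.8 and 6.6% of the placed peaks, beside 3.8 and 6.2% within 500 nt of the start. How much exon each bin held was not annotated. At the 5′ end the lists differed. The bin at the start held 6.66% of peaks in replicate 1 and 8.96% in replicate 2, and 45.5% (95% interval 43.5 to 47.5) and 32.5% (30.9 to 34.1) of these were shared. Within 500 nt of the gene start there were 1418 peaks in replicate 1 and 2287 in replicate 2, at median percentiles of 43.2 and 35.7, and 53.7 and 33.2% were shared. Replicate 2 thus had more peaks near gene starts, of lower rank, and the cause was not tested.

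**Figure D3:**
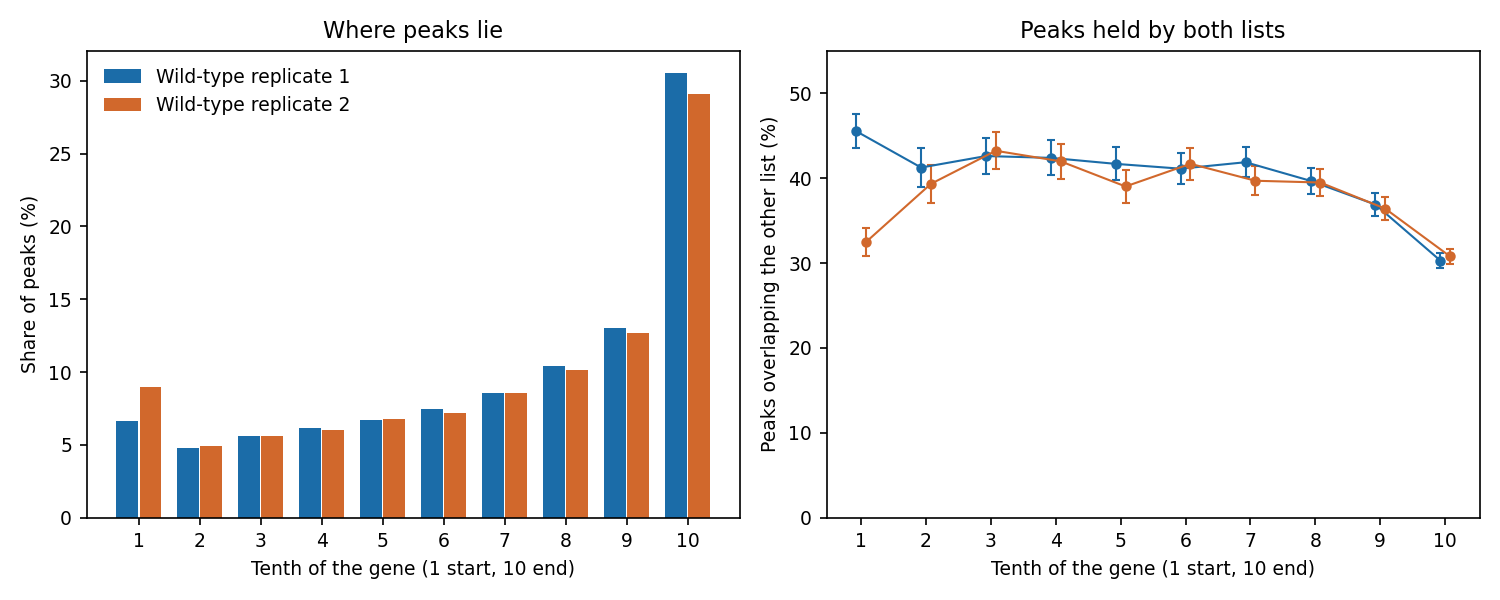
Share of peaks in each of 10 equal bins of the RefSeq gene from start to end (left, vertical axis in % of peaks) and percentage of the peaks in each bin that overlap the other list (right, with 95% exact intervals), for replicate 1 (blue) and replicate 2 (orange). The last bar of each list, 30.5 and 29.1%, is the tallest, and the lists separate in the first bin, where 45.5 and 32.5% of peaks were shared.

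Over all chromosomes together, the strands gave a nearly even picture. The plus strand held 51.3% of peaks in each list and 51.6 and 51.7% of shared peaks, with intervals from 50.8 to 52.4% and 50.9 to 52.5%. Single chromosomes lay further from even. On chromosome 19 the plus strand held 60.1 and 61.2% of shared peaks, on chromosome 15, where SNHG14 lies, 59.1 and 60.5%, and on chromosome 8 43.8 and 45.9%. These were not alone, since chromosomes 20 (58.9 and 58.4%), X (58.3 and 57.6%) and 5 (58.3 and 56.8%) also lay above even. Chromosomes 9 (46.6 and 46.0%) and 13 (45.6 and 48.1%) were among those below. Chromosome 1 held the most shared peaks, 11.1% in both lists.

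Shared genes were unevenly spread relative to the number of genes. Per 100 protein-coding RefSeq genes, chromosome 18 had 39.6 shared genes, chromosome 13 35.8 and chromosome 5 35.5. The shared genes counted here were of any type, noncoding ones included. Chromosome 19 had 16.9, chromosome 11 20.1 and chromosome 22 20.6. The share of peaks held by both lists was highest on chromosome 5 in both lists among nuclear chromosomes other than Y (40.3 and 41.0%), and lowest on chromosomes 9 (31.8% in replicate 1 and 28.6% in replicate 2) and 19 (33.0 and 28.5%). Among the genes with the most peaks on their chromosome were VCAN (31 and 24), a matrix proteoglycan, on chromosome 5, DSG2 (20 and 18), a desmosomal cadherin, on chromosome 18, and PTPRS (16 and 13), a receptor phosphatase, on chromosome 19.

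**Figure D4:**
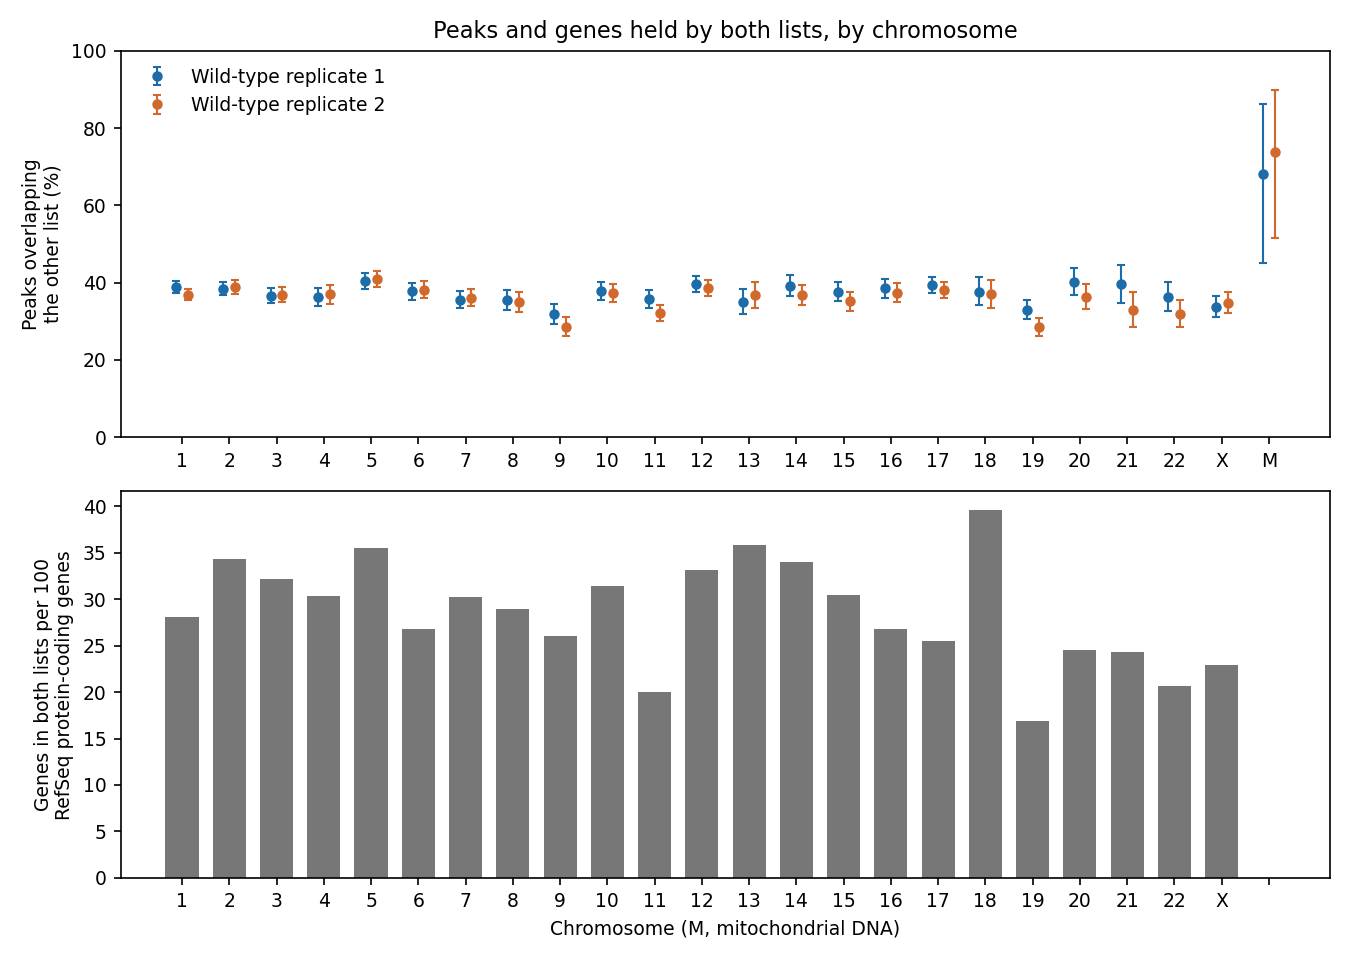
Percentage of peaks on each chromosome that overlap the other list (top, replicate 1 blue, replicate 2 orange, with 95% exact intervals). The bottom bars, from 0, give the number of shared genes of any type per 100 RefSeq protein-coding genes, with mitochondrial DNA not drawn there. Nuclear chromosomes other than Y, which is not drawn, lie between 28.5 and 41.0% in the top panel, mitochondrial DNA at 68.2 and 73.9%, and the bottom panel runs from 16.9 on chromosome 19 to 39.6 on chromosome 18.

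Gene families were compared by their peaks and by the share of these held by both lists. Of 30 families set by symbol, 21 had a larger shared share than all peaks in both lists, 5 a smaller one in both, and 4 lay on different sides. No test was made, families differ in peak number, score and span, and the intervals in the plot cover counting error only.

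**Figure D5:**
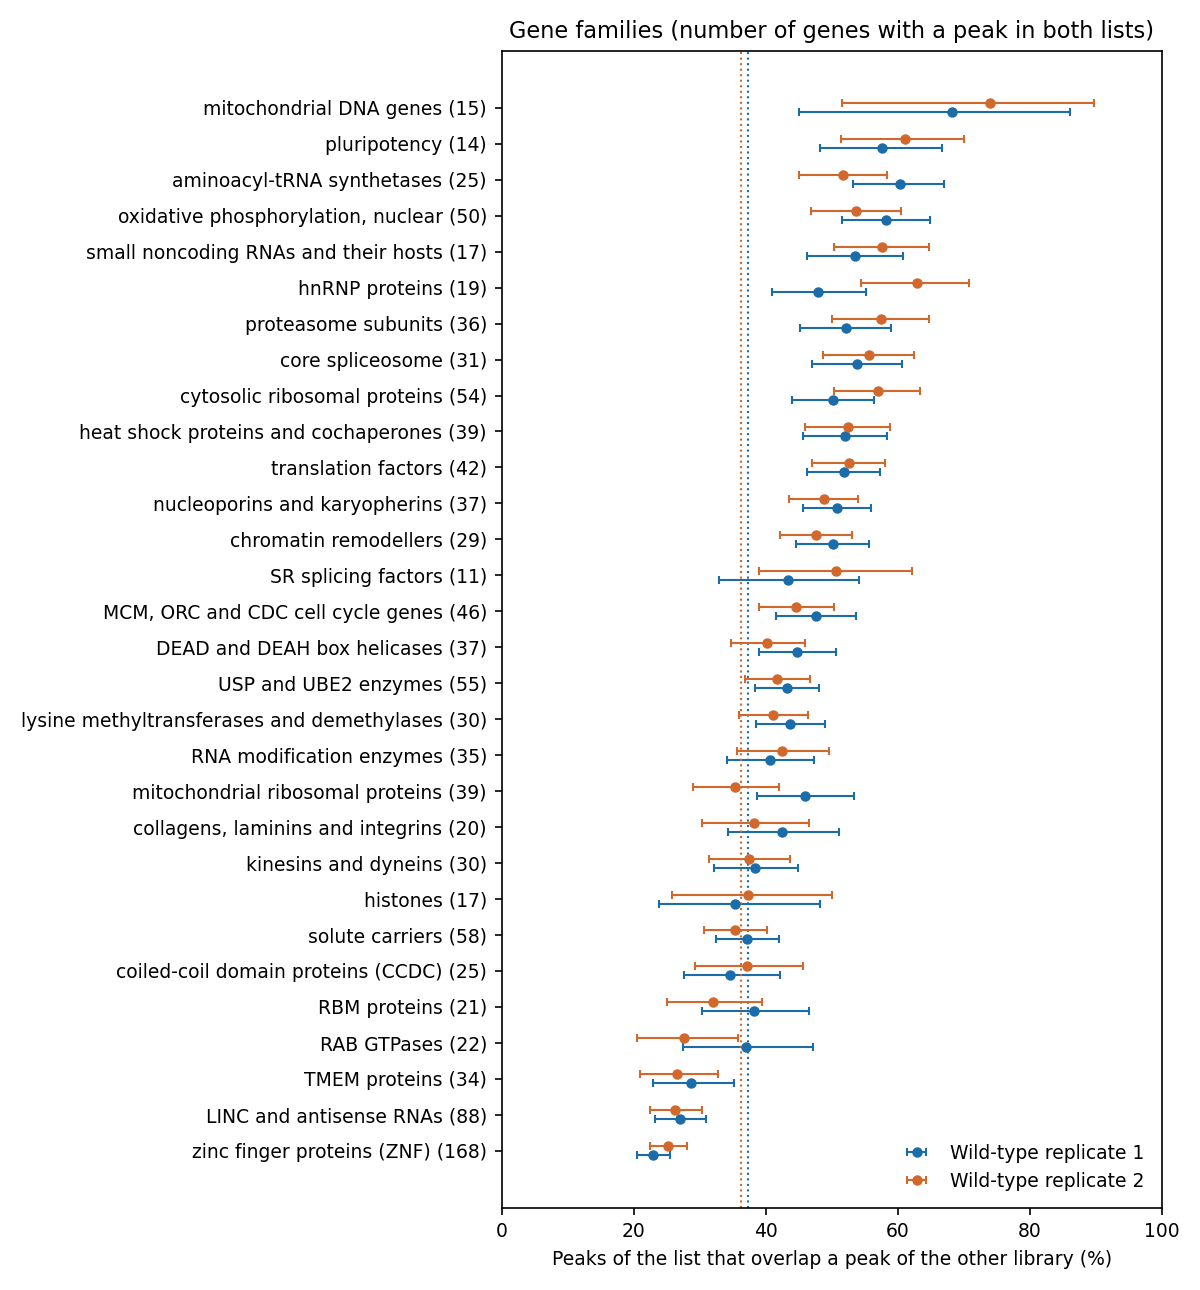
Percentage of a family's peaks that overlap a peak of the other list, for replicate 1 (blue) and replicate 2 (orange) with 95% exact intervals, with the number of shared genes in parentheses and the values over all peaks, 37.4 and 36.3%, as dotted lines. Families are ordered by the mean of both lists, with mitochondrial DNA genes at the top and zinc finger proteins at the bottom with 22.97 and 25.25%.

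The machinery of protein synthesis ranked high. Cytosolic ribosomal proteins had 265 and 235 peaks, of which 50.2 and 57.0% were shared, and their median score percentiles of 73.4 and 69.9 were above those of the other nuclear families. Of 88 RefSeq genes of this kind, 54 (61.4%) had peaks in both lists and 11 (12.5%) in neither. Over all protein-coding genes these shares were 26.6 and 60.0%. Peaks numbered 11 and 10 in RPL37A, 9 and 10 in RPS24 and 6 and 7 in RPLP0. The spans of the RPL37A peaks summed to 66253 and 66603 nt, while its RefSeq length is 5243 nt, so their assignment is uncertain. Aminoacyl-tRNA synthetases, which load amino acids on transfer RNA, had 60.3 and 51.8% of peaks shared, led by the isoleucine enzyme IARS1 (29 and 24 peaks) and the leucine enzyme LARS1 (20 and 27). Translation factors had 51.8 and 52.6% shared, with 17 and 13 peaks in the initiation factor EIF4G2 and 11 and 11 in the helicase EIF4A2. Mitochondrial ribosomal proteins lay on different sides, at 46.0 and 35.3%.

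Several families of RNA processing and protein quality control also lay above all peaks, while RBM proteins, which hold RNA-binding motifs, lay on different sides (38.3 and 32.0%). Heterogeneous nuclear ribonucleoproteins, which package nuclear RNA, had 48.0 and 62.9% of peaks shared, with 33 and 24 peaks in HNRNPU. Core spliceosome genes had 53.9 and 55.7%, with 25 and 20 peaks in PRPF8, at the catalytic centre, and 12 of 14 and 13 of 13 peaks shared in SF3B1, which helps recognise the branch point. All 11 of the SR splicing factor genes with a peak had one in both lists, beside 64.6% of all genes with a peak. Of 14 RefSeq SR genes, 11 (78.6%) had peaks in both lists and 3 (21.4%) in neither. Over all protein-coding genes these shares were 26.6 and 60.0%. SRSF1 had 11 and 12 peaks. Proteasome subunits had 52.1 and 57.5% shared, and heat shock proteins and cochaperones 52.0 and 52.4%. Nuclear genes of oxidative phosphorylation had 58.3 and 53.7%, with 12 and 13 peaks in ATP5F1A, the alpha subunit of ATP synthase, of which 11 and 10 were shared.

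Pluripotency genes had 118 and 113 peaks, of which 57.6% (95% interval 48.2 to 66.7) and 61.1% (51.4 to 70.1) were shared. TERF1 had 17 and 20 peaks, with 14 and 13 shared. DPPA4, a chromatin-associated factor of pluripotent cells, had 14 and 13 peaks with 9 shared in each, and DNMT3B 14 and 10 with 9 and 8 shared. The RNA-binding protein LIN28A, which blocks maturation of let-7 microRNAs, had 9 and 9 peaks with 9 and 8 shared. Its paralogue LIN28B had 10 and 10 with 6 and 7 shared, and SALL4 9 and 8 with 3 shared in each.

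Chromatin genes carried many peaks each. Chromatin remodellers had a median of 10 and 9 peaks per shared gene, against 5 for all shared genes, and 50.2 and 47.6% of their peaks were shared. BPTF had 26 and 24 peaks and CHD4 21 and 20. Lysine methyltransferases and demethylases had medians of 9 and 8.5, with 26 and 29 peaks in KMT2A and 25 and 25 in KDM5B. Such medians were not particular to chromatin genes. Nucleoporins and karyopherins had 10 and 10, with 50.8 and 48.8% of peaks shared, and SR splicing factors 9 and 7. Gene length was not taken into account in these medians. Of 95 RefSeq histone genes, 15 (15.8%) had peaks in both lists and 66 (69.5%) in neither, and the latter is not far from the 60.0% of all protein-coding genes.

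Zinc finger genes had the most peaks of any family and the smallest shared share. Per shared gene their median was 4 peaks in each list, against 5 for all shared genes. They held 1106 and 982 peaks in 306 genes, of which 168 were shared, and 254 of the peaks in replicate 1 (22.97%, 95% interval 20.5 to 25.6) and 248 in replicate 2 (25.25%, 22.6 to 28.1) were held by both lists. The average of 251 shared peaks went to 97 with the stronger 50% of each list and to 106.5 when the overlap had to cover 50% of both peaks. ZNF638 had 17 and 18 peaks with 10 and 11 shared, and ZNF207, which stabilises microtubule attachment at kinetochores, 17 and 14 with 9 and 10 shared, so single members lay above the family. In ZNF292 only 3 of 22 and 4 of 11 peaks were shared. Of 556 RefSeq zinc finger genes, 163 (29.3%) had peaks in both lists, near the 26.6% of all protein-coding genes, and 258 (46.4%) in neither, beside 60.0%.

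TMEM proteins (28.8 and 26.5%) and long intergenic and antisense RNAs (27.0 and 26.3%) also lay below all peaks in both lists. Solute carriers (37.2 and 35.4%), and RAB GTPases in replicate 1 (37.0%), stood near the values of all peaks, and RAB GTPases had 27.7% in replicate 2. Among the noncoding RNAs, MALAT1 had 16 and 16 peaks with 11 and 13 shared, far from its group. Small noncoding RNAs and their hosts had 53.6 and 57.7% shared, and besides SNHG14 the growth-arrest transcript GAS5, also a host of small nucleolar RNAs, had 13 and 11 peaks with 8 shared in each.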

How the data were processed

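ac4C-RIP-seq libraries of wild-type H1 cells (2 immunoprecipitation libraries, grouped by their titles) were described from 1 deposited peak list per library. Per the submitters' processing notes, the authors used HISAT2 2.2.1 and build hg38, with fastp 0.21.1, bedtools 2.30.0 and SAMtools 1.12. How peaks were called, at which threshold and against which control, and how genes were annotated is not given in the sources used here. The deposited score of each peak is the authors', its meaning is not stated, and here it served only for percentile ranks inside each list, with infinite scores on top and ties at their mean rank. Deposited starts count from 0 and are given from 1. Read depth is unknown, and every column of per-sample values was mapped to a sample. Overlaps were computed with Python 3.11.15, pandas 2.3.3 and NumPy 2.4.6, tested on simulated peaks with known overlaps; exact 95% Clopper-Pearson intervals came from SciPy 1.17.1 and figures from matplotlib 3.10.9. Genes were matched by symbol to RefSeq, GRCh38.p14, for length, type and sequence, and sequences on chromosomes 8 and Y were not used. The knockdown lists were not used.

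No contrast between groups was made and no test was run. Named genes were NAT10, the 15 genes with the largest lower peak number, the 12 shared regions with the highest lower percentile, the 5 longest shared regions, for each family the 4 leading genes, the 6 leading genes of 1 list only, and the leading gene of each chromosome, of which some are not reported here; TTN-AS1, ZNF292, LIN28A, SALL4, MT-ND3, MT-TS1, MT-TH, MT-TC and the genes and microRNAs of the printed sequences were named after their values were seen. The members and lists were chosen with earlier results of these data known, and the symbol patterns were tidied after values were seen, to drop symbols caught by mistake. Alternatives were another overlap, the stronger 50% of each list, a span limit of 1000 nt, either strand, merged regions, symbols as gene key, and no pseudogenes. The main values are also given by list, which is not an alternative.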

Additional observations from a re-analysis of the deposited data

How the results depend on the processing

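The percentile and span differences of shared against other peaks kept their sign under the alternatives tried, and most sizes moved. When the overlap had to cover 50% of both peaks, the mean shared share went from 36.8 to 19.2%, the percentile difference from 15.1 to 18.8, the span difference from 75 to 163.75 nt, the plus strand share from 51.6 to 51.56%, the chromosome 1 share from 11.09 to 11.16% and shared zinc finger peaks from 251 to 106.5. Shared genes went from 5607 to 3485 and peaks per shared gene from 6.02 to 7.20, but there a gene also needed an overlapping pair, which 4530 genes had at 1 bp. With the stronger 50% of each list the values were 29.8%, 3.60 peaks per gene, 6.27, 83.75 nt, 51.48%, 10.9% and 97 zinc finger peaks, and shared genes numbered 4585. With peaks of at most 1000 nt they were 28.3%, 4.76 peaks per gene, 50 nt, 51.42% and 11.5%, with 5340 genes. Merged regions gave 20.8% shared. A higher threshold, a stricter overlap or a span limit leaves fewer peaks to be matched by construction. In the main overlap, the values by list were 36.3 to 37.4% shared and 5.94 to 6.11 peaks per gene. The percentile difference was 13.8 to 16.4 and the span difference 75 nt. The plus strand held 51.6 to 51.7% and chromosome 1 11.07 to 11.12%, and shared zinc finger peaks numbered 248 to 254. These are the main values of each list and no separate check, since peaks and genes held by both need both lists. No paired analysis was possible because no groups were compared. Without read counts, depth could not be weighed.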

Other observations

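Symbols were also grouped by their leading letters alone, which uses no list of families. Among shared genes, the prefix ZNF led with 161 genes and 837 and 779 peaks, followed by SLC with 64 genes and 386 and 359 peaks, EIF with 41 genes and 306 and 307, USP with 33 genes and 280 and 273, and DDX with 25 genes and 219 and 217. The 8 shared CHD genes, chromodomain helicases, carried 131 and 136 peaks, and the 18 NUP genes, of the nuclear pore, 173 and 159. Prefixes group genes by name and not always by function, and a larger group can hold more peaks. On the closest family lists, 29.3% of RefSeq zinc finger genes and 16.7% of solute carriers had peaks in both lists. For translation factors, USP and UBE2 enzymes and DEAD and DEAH box helicases the share was 61.5, 62.1 and 68.5%. It was 69.0% for chromatin remodellers and 80.4% for nucleoporins and karyopherins, beside 26.6% of all protein-coding RefSeq genes.

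Genes with exactly 1 peak were fewer than genes with 2, 222 against 1552 in replicate 1 and 412 against 1617 in replicate 2. The single peaks stood high in rank, at median percentiles of 92.7 and 85.9, while peaks of genes with 2 peaks stood at 41.2 and 42.6. Of the single peaks 39.2% (95% interval 32.7 to 45.9) and 28.2% (23.9 to 32.8) overlapped the other list, against 24.1 and 21.6% of peaks in genes with 2.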
